A study of Homo sapiens with 4 samples.

Results

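The 86 genes described here encode the proteins of the cytosolic ribosome, with a few close relatives, and were chosen by symbol: RPL or RPS followed by a digit, or RPSA, RPLP0, RPLP1 or RPLP2, without S6 kinases, Y-linked forms and hyphenated read-through symbols. They were 86 of the 19732 symbols listed for A549 (a cell line from a human lung adenocarcinoma), and the table of H1299, another human lung cancer line, listed the same symbols. RNA had been sequenced from a control culture and an RBM4 knockdown culture of each line, 4 samples with 1 library per group, to ask which genes differ when RBM4, which binds RNA and acts on splicing and on translation, is reduced. Each line was grown in its own serum-containing medium, alike in control and knockdown as far as the labels say. The agent behind the knockdown is given in the labels only as sh, and whether a culture is 1 clone is not stated in the sources used here. The H1299 values stand under 3 column names that no label holds, so the H1299 samples were not analysed here. Of the 86 symbols, 77 are the standard ribosomal proteins, 8 are alternative forms encoded by related genes, and RPS19BP1 is a nucleolar protein that binds RPS19 and matched the rule by its name alone. Proteins of the ribosome whose symbols fall outside the rule (FAU and RACK1 here) were taken from a separate list.

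A ribosome is built from a small subunit, which decodes the messenger RNA, and a large subunit, which joins the amino acids, and each standard protein is needed in about equal copy number. Their messenger RNAs are among the most abundant in growing cells and share a run of pyrimidines at the 5′ end, the TOP motif, through which LARP1 and the kinase mTOR control their translation together. Some proteins have a further role when not built into ribosomes: RPL5 and RPL11, with 5S ribosomal RNA, bind the p53 antagonist MDM2. Alternative forms such as RPL39L or RPL22L1 can take the place of the standard protein in some tissues.

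The sequences around the transcription start show this shared feature, for members that the results below turn on. Each line gives 30 bases before and 20 bases from a start listed by RefSeq (build GRCh38.p14), 5′ to 3′. The unbroken run of C and T that begins at the start is in capitals. RPL11 and RPS19 have 2 listed starts each, not all of which are printed.
RPL11, chr1:23691776-23691825, plus strand: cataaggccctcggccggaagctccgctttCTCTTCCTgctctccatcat
RPL18, chr19:48619159-48619208, minus strand: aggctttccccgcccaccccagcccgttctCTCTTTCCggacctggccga
RPL28, chr19:55385902-55385951, plus strand: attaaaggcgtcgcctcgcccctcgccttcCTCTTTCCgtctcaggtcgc
RPS6, chr9:19380217-19380266, minus strand: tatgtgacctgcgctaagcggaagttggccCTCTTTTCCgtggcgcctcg
RPS19, chr19:41860225-41860274, plus strand: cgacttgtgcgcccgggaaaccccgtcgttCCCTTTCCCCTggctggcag
RPL39, chrX:119791611-119791660, minus strand: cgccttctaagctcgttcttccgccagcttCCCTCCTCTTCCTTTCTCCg
RPL22, chr1:6199576-6199625, minus strand: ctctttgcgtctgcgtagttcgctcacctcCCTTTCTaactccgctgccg
RPL22L1, chr3:170870176-170870225, minus strand: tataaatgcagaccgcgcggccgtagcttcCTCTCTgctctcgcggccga
RPS27, chr1:153990732-153990781, plus strand: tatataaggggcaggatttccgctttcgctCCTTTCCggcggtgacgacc
RPS27L, chr15:63157458-63157507, minus strand: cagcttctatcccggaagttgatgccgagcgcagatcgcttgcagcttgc

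RPL11, the lowest member in the comparison below, and RPL28, the highest, both carry a run of 8 pyrimidines at the printed start. RPS27L, an alternative form of RPS27 known as a p53 target, has no C or T at its listed start. A start was listed for 68 members, and for 47 of them (69.1%) at least 1 listed start was a C followed by 4 or more C or T, against 6.33% of the 14511 symbols of the table with a listed start. The motif CCGGAA, the core of binding sites of the ETS factor family, was present on either strand of the 300-base window around the start in 57.4% of members and 27.1% of all symbols. TATAAA, the TATA box, was present in 10.3% and 12.1%, and GGGCGG, the core of SP1 sites, in 58.8% and 65.5%. Among measured members the median log2 difference, defined below, was -0.23 for the 47 with such a start and -0.25 for the 20 with a listed start of another kind, values that lie close together.

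The targeted gene RBM4 had 59.4 FPKM in control cells and 30.6 FPKM after knockdown, 51.5% of the control. FPKM is the number of sequenced fragments, scaled for the length of the transcript and the size of the library, so a value depends on all other RNA in the same library. Where 2 FPKM values follow a gene, the control library comes first and the knockdown library after it. The number of reads is unknown, and no counting interval can be given. The column names alone tell control from knockdown, and with 1 library per group no difference has a replicate check or a p-value. The epithelial genes KRT8, KRT18, KRT19, EPCAM and CDH1 and all 7 listed A549 genes were at 1 FPKM or more in both libraries. Their summed levels were 3539 and 1875 FPKM for the epithelial genes and 10947 and 6682 FPKM for the A549 genes. The epithelial sum was mostly KRT8 (1646 and 888 FPKM) and KRT18 (1853 and 912 FPKM). KRT19 was higher in the knockdown library (29.6 and 64.9 FPKM), EPCAM was alike (2.74 and 2.75 FPKM) and CDH1 was slightly lower (7.70 and 6.54 FPKM). All 7 A549 genes were lower. The part of these differences in the results was not tested. CDKN2A, which is deleted in A549, was listed at 0 in both. Markers of other cell types were low: the summed level of 8 fibroblast genes was 8.67 and 36.5 FPKM, that of 6 blood and immune genes 2.16 and 4.73 FPKM, and that of 4 endothelial genes 0 and 0.336 FPKM. The genes of these lists at 1 FPKM or more were THY1 (5.73 and 26.0 FPKM), COL1A1 (2.61 and 9.47 FPKM) and CD14 (2.16 and 4.32 FPKM). Each of them was higher in the knockdown library. DCN, CD3E, LYZ, HBB, VWF and KDR were listed at 0 in both, and the part of these cells in the results was not tested.

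Ribosomal protein messenger RNA filled a large part of both libraries. The 86 members together held 98873 FPKM in control cells and 83793 FPKM after knockdown, or 14.7% and 13.5% of all FPKM listed. Of the 100 genes with the highest FPKM, 50 were members in control cells and 47 after knockdown. Small-subunit genes held 6.74% and 6.14% of all FPKM, and large-subunit genes 7.98% and 7.32%. The summed member level in the knockdown library was 84.7% of the control, while the sum over all genes was 92.7% of the control. In these bulk samples a lower share of ribosomal protein RNA cannot be told apart from more RNA of other genes. Nor can a difference in some of the cells be told apart from a difference in all of them.

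Levels of single members spread over a wide range, although their proteins are needed in similar amounts. Members at 1 FPKM or more in either library numbered 84, with median levels of 1037 and 860 FPKM. In the control, 65 of the 84 lay between 500 and 2500 FPKM and 6 above it. RPS27 was highest at 4131 and 3727 FPKM, followed by RPL41 at 3860 and 3044 FPKM, RPS19 at 3389 and 2869 FPKM, RPS16 at 3111 and 2704 FPKM and RPS29 at 3077 and 2325 FPKM. All of these most abundant members are small proteins of either subunit, and all had a lower value in the knockdown library. The 5 members under 100 FPKM in the control were RPL7L1, RPL39L, RPS28, RPS19BP1 and RPL26L1, of which only RPS28 is a standard ribosomal protein.

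RPS28, a small-subunit protein, had 37.4 and 30.7 FPKM, far under the other standard members. Its only transcript in the table, RPS28-203, is 1326 bases long in GENCODE release 29, the other GENCODE transcripts of the gene not being in the table. RPL37, of the large subunit, was the next lowest standard member at 140.9 and 132.3 FPKM, and 1 of its listed transcripts is 7686 bases long. Across the 84 members the control level and the mean transcript length, weighted by FPKM, had a Spearman correlation of -0.41, given as a description because FPKM itself divides by length. Levels in the libraries, which share the same lengths, were closely related: Pearson's r of the log2 levels was 0.995 across the 84 members, against 0.952 across all 12230 genes kept.

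**Figure D1:**
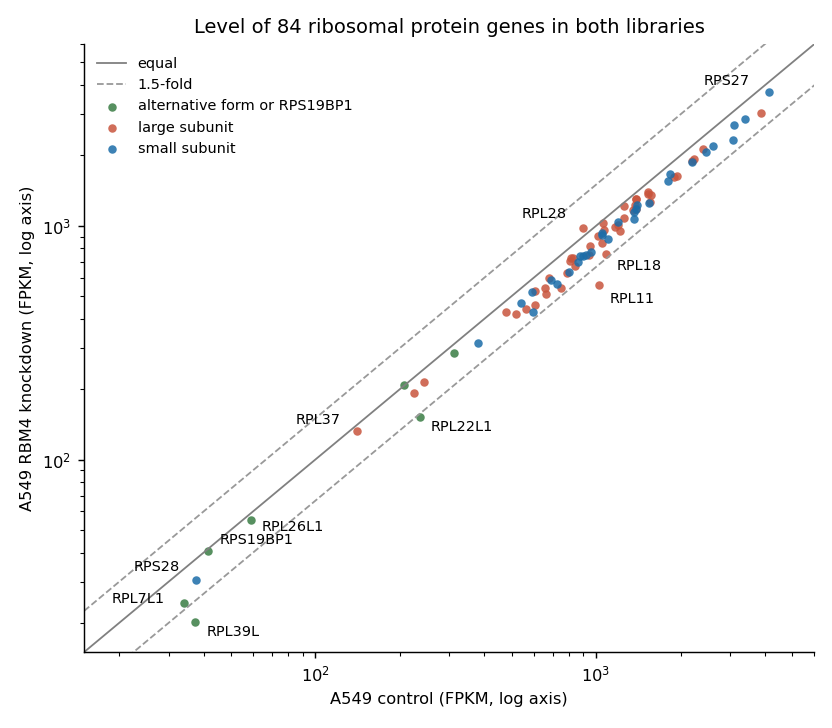
FPKM of the 84 measured members in the A549 control library (x axis, log scale) and the A549 RBM4 knockdown library (y axis, log scale), 1 point per gene and 1 library per axis, with the line of equal values and lines at 1.5-fold. Most points lie just under the line of equal values, with RPL11, RPL22L1 and RPL39L at or beyond the lower 1.5-fold line and RPL28 above equality. On these axes, without a pseudocount, the lines differ slightly from the counted 1.5-fold threshold.

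The libraries were compared by the log2 ratio of knockdown to control after adding 1 to each FPKM, on which a value below 0 is lower in the knockdown library. Most members were lower by a small and similar amount. Their median difference was -0.23, and 82 of 84 lay below 0, where 53.4% of all genes did. A position below 0 was not particular to them, as 76 of the 78 mitochondrial ribosomal protein genes described below also had it. With the libraries set to 1 common total FPKM, 75 of 84 members lay below 0 with a median of -0.12. With genes of the mitochondrial genome left out of that total, 66 of 84 members did, with a median of -0.07. Those scalings moved the median of all genes up by 0.10 and 0.15, to 0.06 and 0.11. The share of 53.4% of all genes therefore does not apply to the rescaled counts. Genes of the mitochondrial genome held 18.6% and 21.7% of FPKM, and their part in the difference was not tested. Measured from the median of all genes, which was -0.04, the members' median was -0.19.

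At a fold of 1.5, 3 of 84 members were lower (3.57%) and none was higher, against 9.83% of all genes lower and 12.7% higher. No member differed by 2-fold, where 2.25% of all genes were lower and 4.96% higher. At 1.25-fold, 20 members were lower (23.8%) and none higher, beside 24.9% and 23.1% of all genes. The share of members lower at any of these folds was thus at or under the background, while none was higher.

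The members' differences lay close to each other. Their interquartile range ran from -0.32 to -0.18, a width of 0.14, beside 0.61 for all genes. Other genes with a mean of 200 FPKM or more, 289 in number, had a median of -0.27 and an interquartile width of 0.60. Of these 289, 200 (69.2%) lay below 0, and 21.8% were 1.5-fold lower and 6.92% higher. The 78 genes of the mitochondrial ribosome, a separate set of proteins that translates the mitochondrial genome, had a median of -0.39 and an interquartile width of 0.25. Of the 78, 76 lay below 0 (71 and 68 after the rescalings). By 1.5-fold, 12 of 78 were lower (15.4%) and none was higher, beside 9.83% and 12.7% of all genes. After either rescaling, 5 of the 78 were lower by 1.5-fold, where 6.72% and 5.64% of all genes were, shares near that of the list. Among them MRPL53 (-0.89, or -0.32 by its most abundant transcript) and MRPL12 (-0.87) were lowest, and MRPL33 (0.22) and MRPL14 (0.04) highest.

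**Figure D2:**
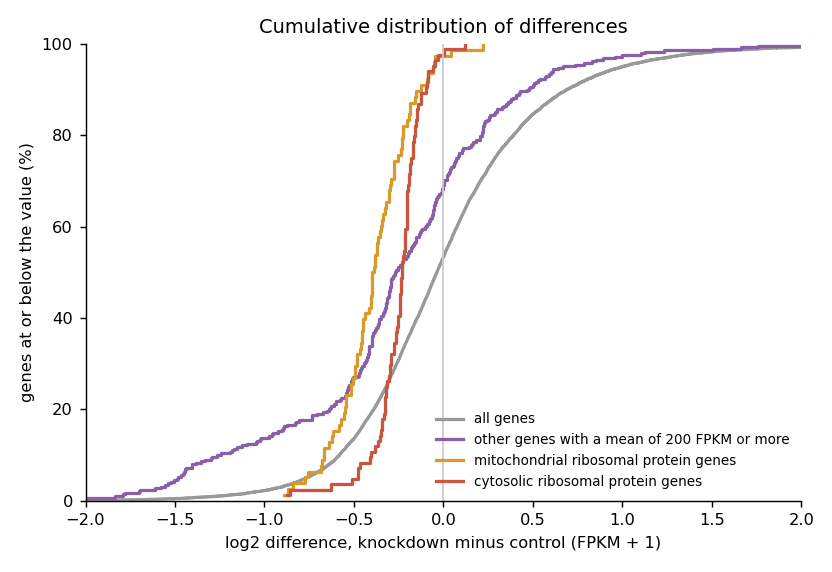
Cumulative share of genes (y axis, %) at or below each log2 difference, knockdown minus control (x axis), for the 84 cytosolic and 78 mitochondrial ribosomal protein genes, the 289 other genes with a mean of 200 FPKM or more, and all 12230 genes. The curve of the cytosolic members is the steepest of the 4, with 82 of 84 below 0 (75 and 66 after the rescalings named in the text). Of the mitochondrial ribosomal protein genes, 76 of 78 lay below 0 (71 and 68 after the rescalings), and of the other abundant genes 200 of 289.

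Small-subunit proteins form the decoding site and its surroundings. All 33 of the RPS symbols lay below 0 (32 and 29 after the rescalings), from RPS26 (-0.48) to RPS19BP1 (-0.03), with a median of -0.24, and none passed 1.5-fold. RPS26, which lies at the messenger RNA exit channel, had 598.0 and 428 FPKM. RPS29, among the smallest proteins of the subunit, had 3077 and 2325 FPKM (-0.40). RPS6, the best known target of the S6 kinases, had 917.8 and 747 FPKM (-0.30), RPS19, the gene most often mutated in Diamond-Blackfan anaemia, had a difference of -0.24, and RPSA, also known as the laminin receptor, had 878 and 743.5 FPKM (-0.24). RPS27A, made as a fusion with ubiquitin, had 1200 and 1041 FPKM (-0.20). RPS26 and RPS29 lay lowest of these, and RPS19 and RPSA at the subunit's median.

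In the large subunit, 49 of 51 measured members lay below 0 (43 and 37 after the rescalings) and the median was -0.22, from RPL11 (-0.88) to RPL28 (0.12). RPL18 had 1082 and 757 FPKM (-0.51), RPL10A 749 and 542 FPKM (-0.47), and RPL36, which shares exons with HSD11B1L and is uncertain, 606.5 and 457 FPKM (-0.41). The 3 stalk proteins, which recruit elongation factors, had differences of -0.35 (RPLP1, 1213 and 953 FPKM), -0.32 (RPLP2, 843 and 674 FPKM) and -0.13 (RPLP0, 1527 and 1397 FPKM). RPL23, another protein known to bind MDM2, had 1169 and 988 FPKM (-0.24). RPL31 (-0.05, 1061 and 1025 FPKM), RPL27 (-0.06, 1262 and 1211 FPKM), RPL10 and RPL36A (both -0.09) were the standard members nearest 0 from below, and all 4 were above 0 after either rescaling.

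RPL28 was the only standard member above 0 on the scale as deposited. The gene (ENSG00000108107, chromosome 19, 55385345 to 55403250, plus strand, hg38) had 896 and 975 FPKM, a difference of 0.12. Both of its main transcripts were higher, RPL28-208 at 514.0 and 551.7 FPKM and RPL28-207 at 316.6 and 354 FPKM. The size is small beside the robust SD of all genes, 0.45, while the members' own robust SD was 0.10 around a median of -0.23.

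**Figure D3:**
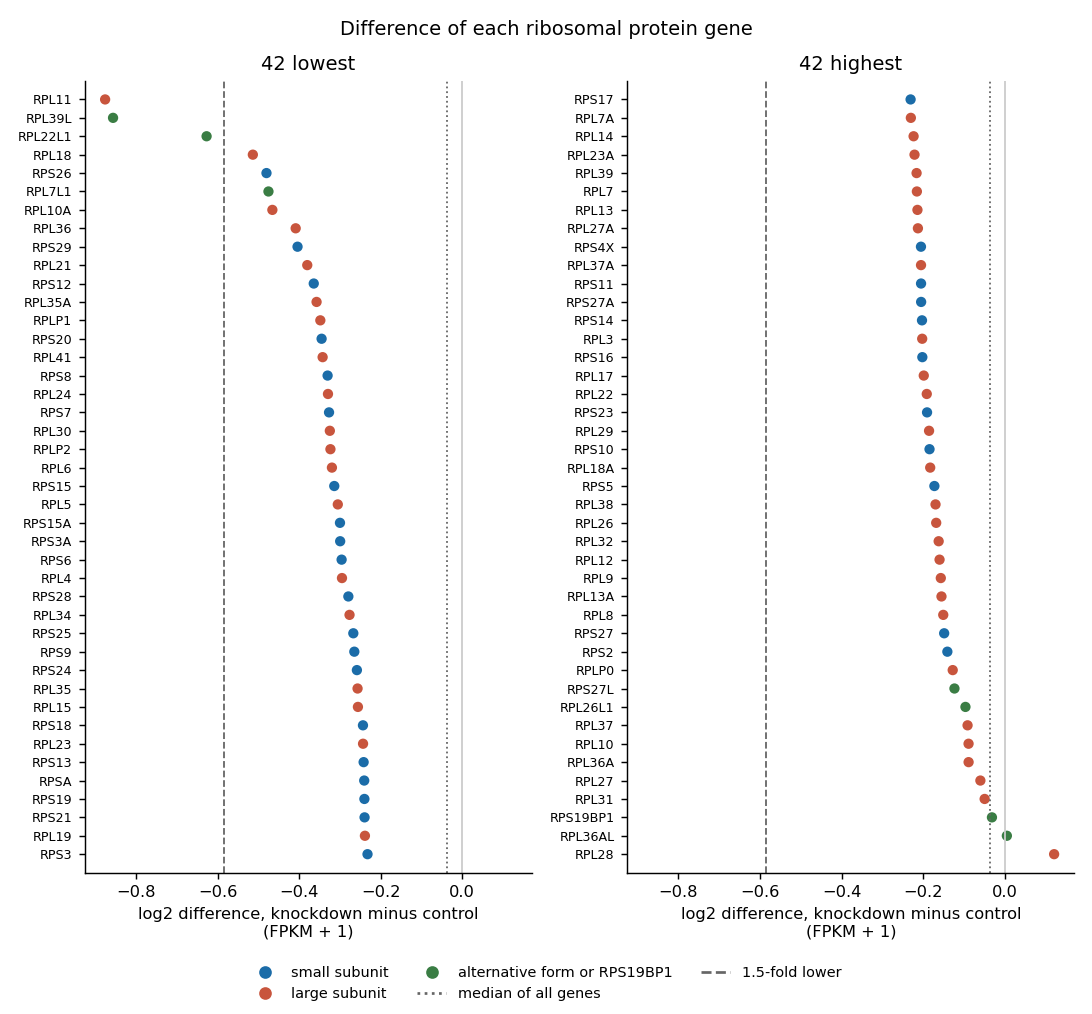
Log2 difference, knockdown minus control, of each of the 84 measured members (x axis), ordered from lowest to highest over both panels and coloured by subunit or as an alternative form; dotted and dashed lines mark the median of all genes and 1.5-fold lower. RPL11, RPL39L and RPL22L1 lie beyond the dashed line, and RPL36AL and RPL28 lie above 0.

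RPL11 stood apart from the other standard members. The gene (ENSG00000142676, chromosome 1, 23691742 to 23696835, plus strand) had 1023 FPKM in control cells, close to the members' median of 1037, and 557 FPKM after knockdown, 54.5% of its control value. It ranked 85th by FPKM among all genes in control cells and 135th after knockdown. The difference of -0.88 was passed by 3.36% of all genes, and the next standard member, RPL18, lay at -0.51. A single transcript, RPL11-201 of 660 bases and 6 exons, held 99.7% of the gene's FPKM in control cells and 99.1% after knockdown, so no shift between listed transcripts goes with it. RPL5, which forms the 5S particle with RPL11, had 518 and 419 FPKM (-0.31), inside the range of the other members.

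RPL11 belongs to a pair of lists set by roles outside the ribosome and by disease. As both hold only members, the lowest of all members is necessarily lowest in each. Of all measured members, 82 of 84 (97.6%) lay below 0, 75 and 66 after the rescalings. Counts below 0 are thus not particular to these lists. Of the 14 members known to bind MDM2, all lay below 0 (14 and 12 after the rescalings). RPL11 alone passed 1.5-fold (7.14% of the list, beside 9.83% of all genes lower). The median of the 14 was -0.26, with RPS26 (-0.48) next lowest. RPS27 (-0.15, 4131 and 3727 FPKM) and RPS27L (-0.12) were highest. Of the 19 members mutated in Diamond-Blackfan anaemia, an inherited failure of red cell production, all lay below 0 (17 and 16 after the rescalings). Among these 19, 1 passed 1.5-fold (5.26%, beside 9.83% of all genes lower), and the median was -0.26.

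The alternative forms were spread from -0.86 (RPL39L) to 0.01 (RPL36AL). Of the 8 forms, RPL10L, the testis form of RPL10, was listed at 0 in both libraries, and RPL3L, the muscle form of RPL3, had 0.184 and 0.053 FPKM, under the minimum of 1 FPKM. Of the 6 others, RPL39L and RPL22L1 were the lowest and RPL36AL was slightly above 0. Without these forms and RPS19BP1, the 77 standard members had a median of -0.23, with 76 below 0 and 1 lower by 1.5-fold.

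RPL39L (ENSG00000163923, chromosome 3, 187120948 to 187180908, minus strand) encodes a form of the exit-tunnel protein RPL39 best known from testis. It had 37.4 and 20.2 FPKM, 54.0% of the control and a difference of -0.86. RPL39 (chromosome X, 119786504 to 119791643, minus strand) had 2195 and 1889 FPKM (-0.22), so RPL39L was at 1.70% of the RPL39 level in control cells and 1.07% after knockdown. The coding sequences, shown here because reads from one could be assigned to the other, differ at 8 of 153 bases before the stop codon, marked in capitals (GENCODE release 29, RPL39-201 and RPL39L-201).
RPL39: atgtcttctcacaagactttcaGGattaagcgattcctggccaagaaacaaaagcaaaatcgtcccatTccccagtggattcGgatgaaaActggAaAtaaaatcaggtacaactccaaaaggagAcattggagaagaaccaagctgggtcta
RPL39L: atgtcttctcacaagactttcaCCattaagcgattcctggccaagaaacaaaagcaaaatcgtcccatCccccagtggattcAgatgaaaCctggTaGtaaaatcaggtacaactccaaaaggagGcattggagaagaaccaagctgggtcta

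Identity of these coding sequences was 94.8%, with 44 bases as the longest identical run. How the authors shared reads between such copies is not given in the sources used here, and with RPL39 58.7 times as abundant in the control, the level of RPL39L is uncertain.

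RPL22L1 (ENSG00000163584, chromosome 3, 170864875 to 170870483, minus strand) is the form of RPL22, an RNA-binding protein of the large subunit that is dispensable for translation and known to hold RPL22L1 down. RPL22L1 had 236 and 152.4 FPKM, 64.6% of the control and a difference of -0.63. RPL22, which shares exons with another protein-coding gene and is uncertain, had 244 and 214 FPKM (-0.19). By the most abundant transcript of each gene, RPL22 was at -0.34 and RPL22L1 at -0.63. By summed FPKM the pair was near parity in the control, RPL22L1 at 96.6% of RPL22, and RPL22L1 was at 71.3% of RPL22 in the knockdown library. All 3 listed RPL22L1 transcripts were lower, the main one, RPL22L1-202, at 209 and 135.0 FPKM. That transcript lay above the main one of RPL22, RPL22-207, in both libraries (138.2 and 108.7 FPKM), so parity depends on the summing. The coding sequences share 64.8% of bases, the longest identical run being 17 bases. RPL22L1 no longer passed 1.5-fold after either rescaling to the same total.

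RPS27L had 312 and 286 FPKM (-0.12), close to RPS27 itself (-0.15), and was at 7.55% and 7.68% of the RPS27 level. The opening 90 coding bases, printed because the pair is close in protein but separable in sequence, differ at 24 positions, in capitals (GENCODE release 29, RPS27-201 and RPS27L-201).
RPS27: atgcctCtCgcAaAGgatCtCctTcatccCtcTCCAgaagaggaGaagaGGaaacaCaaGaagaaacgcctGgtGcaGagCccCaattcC
RPS27L: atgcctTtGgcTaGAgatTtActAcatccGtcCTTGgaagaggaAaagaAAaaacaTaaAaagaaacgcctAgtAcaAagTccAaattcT

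RPL36AL had 207.4 and 208.2 FPKM (0.01), and its relative RPL36A had 1391 and 1308 FPKM. Their coding sequences share 89.9% of bases, with an identical run of 60 bases, and RPL36A shares exons with a read-through gene, so both are uncertain. RPL26L1 had 59.0 and 55.1 FPKM (-0.10), beside 2396 and 2132 FPKM for RPL26 (-0.17), at 84.1% identity. RPL7L1, a nucleolar relative of RPL7 that acts in ribosome assembly, had 34.1 and 24.2 FPKM (-0.48), beside 949 and 817 FPKM for RPL7 (-0.22), at 52.8% identity. RPS19BP1 had 41.6 and 40.6 FPKM (-0.03).

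**Figure D4:**
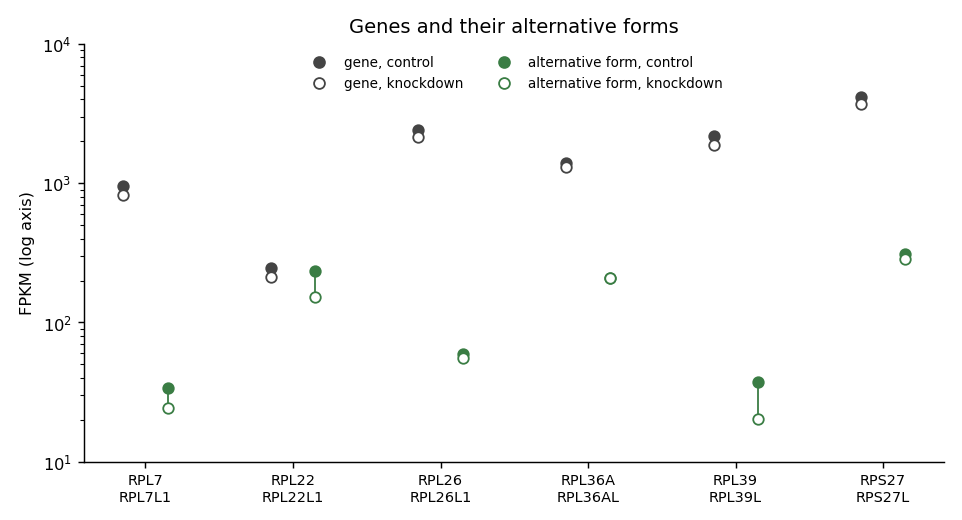
FPKM (y axis, log scale) of 6 genes (grey) and their alternative forms (green) in the A549 control (filled) and RBM4 knockdown (open) libraries, 1 library each. The distance between filled and open points is largest for RPL39L and RPL22L1, and RPL22 and RPL22L1 are the only pair near parity in the control by FPKM summed over transcripts.

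Because RBM4 regulates splicing, the share of each gene's FPKM held by each listed transcript was compared between the libraries. These shares are estimates by the authors' software from reads that transcripts have in common, and no error was listed. Of the 76 members with more than 1 listed transcript and at least 10 FPKM in both libraries, 3 (3.95%) had a transcript whose share moved by 10 percentage points or more, against 25.5% of all 5802 such genes and 4.33% of the 231 other genes at 200 FPKM or more in the control. The median of the largest shift was 1.00 point for members, 5.70 points for all genes and 2.18 points for the other abundant genes. The members with such shifts were RPL26L1, RPL21 and RPL3, and RPS24 came closest after them. In these 4 genes the main transcripts differ at the 5′ end or by a very short exon. Those of RPL26L1, RPL3 and RPS24 also differ in where they end.

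In RPL26L1 (chromosome 5, 172958729 to 172969771, plus strand) the transcript RPL26L1-201 held a share of 55.3% in control cells and 30.2% after knockdown, with 32.6 and 16.7 FPKM. RPL26L1-203 held 22.7% and 40.1%, and RPL26L1-206 held 19.1% and 27.7%. The 3 share the same 435 coding bases and differ in the first exon, which starts at 172959424, 172959460 and 172958893. Their last exons also differ, ending at 172969771, 172969718 and 172969721. The summed level of the gene differed by -0.10, while its most abundant control transcript was at 51.1% of its control level.

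RPL21 (chromosome 13, 27251309 to 27256691, plus strand), a large-subunit protein, had 666 and 511 FPKM (-0.38). RPL21-201 held 63.3% of it in control cells and 45.2% after knockdown, with 421 and 231 FPKM, and RPL21-202, which begins upstream, held 18.2% and 33.3%, with 121 and 170 FPKM. Both have 480 coding bases, and their first exons start at 27251579 and 27251309. With 66 pseudogenes named after it in GENCODE, RPL21 is a gene whose reads can be placed elsewhere, and its values are uncertain. If each gene was instead represented by its most abundant transcript, RPL21 joined the members 1.5-fold lower.

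RPL3 (chromosome 22, 39312882 to 39320389, minus strand), a protein at the peptidyl transferase centre, had 605 and 525 FPKM (-0.20). RPL3-201, of 10 exons and 1209 coding bases, held 87.3% in control cells and 71.2% after knockdown, at 528 and 374 FPKM. RPL3-202, of 9 exons and 1053 coding bases, held 12.5% and 26.0%, at 75.5 and 136.7 FPKM. RPL3-202 lacks the first exon of RPL3-201, and its own first exon covers the second exon of RPL3-201 with 22 further bases upstream. Thus the annotated full-length transcript was lower while the 5′-shortened one was higher.

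RPS24 (chromosome 10, 78033732 to 78056813, plus strand), a small-subunit protein, has a 3-base exon at chr10:78037439-78037441 that RPS24-201 includes and RPS24-202 lacks. RPS24-201 had 476 and 595 FPKM, and RPS24-202 had 1910 and 1391 FPKM. These transcripts also end at different bases, 78040697 and 78040716 in that order. The end of the coding part is printed to show what the exon changes: 12 bases of the exon before it, the 3-base exon in capitals, and the 22 bases of the exon after it (GENCODE release 29).
RPS24-201: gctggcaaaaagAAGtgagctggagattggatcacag
RPS24-202: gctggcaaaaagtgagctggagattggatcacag

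The exon adds 1 codon just before the stop codon tga, so that the coding part is 393 bases in RPS24-201 and 390 bases in RPS24-202. Of the 5 RPS24 transcripts listed, only RPS24-201 holds this exon, at 19.3% of the gene's FPKM in control cells and 28.8% after knockdown. The largest shift, 9.94 points for RPS24-202, was just short of the 10 points used above, and the gene's total was 2470 and 2065 FPKM (-0.26).

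**Figure D5:**
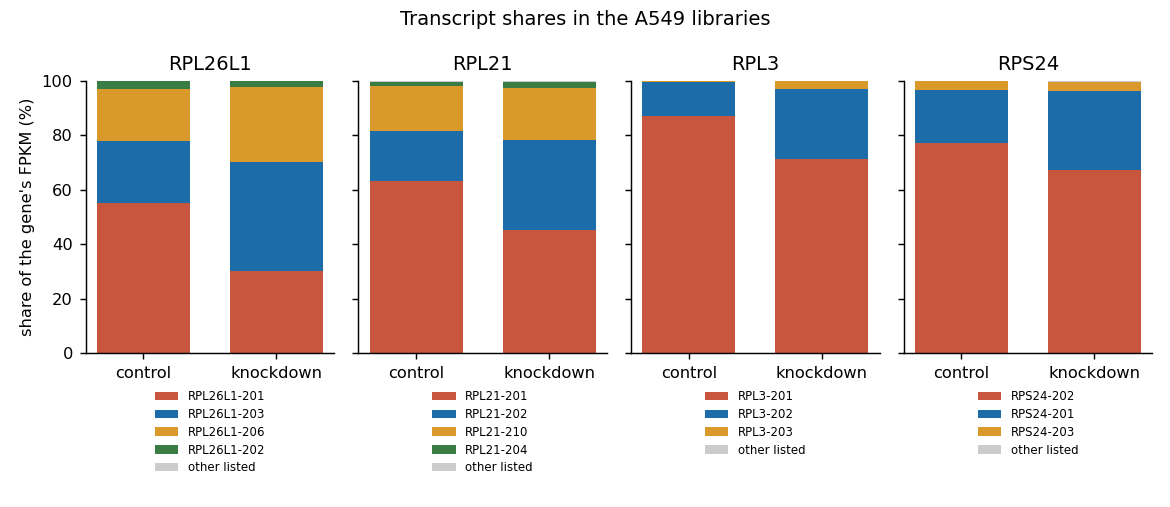
Share of each gene's FPKM (y axis, %) held by its listed transcripts in the A549 control and RBM4 knockdown libraries, 1 library per bar, for RPL26L1, RPL21, RPL3 and RPS24. The lowest segment, the most abundant transcript of the control library, is smaller in the knockdown library in each gene, from 55.3% to 30.2% in RPL26L1 and from 77.3% to 67.4% in RPS24.

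Features that the symbol rule did not use were shared unevenly. Small nucleolar RNAs, which guide modification of ribosomal RNA and are cut from introns, lay within 28 of the 84 measured members, 60 in all, and the median difference was -0.23 in these members and -0.24 in the other 56. Pseudogenes named after the gene existed for 76 members, 1133 in all. A total of 9 members share exons with another protein-coding gene, and the 75 without such overlap had a median of -0.24.

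Genes tied to ribosomal proteins were read beside the members, from lists set by known function. Ribosomal proteins outside the symbol rule lay near 0: FAU, a fusion with a ubiquitin-like protein, had 320.3 and 298.9 FPKM (-0.10), and the scaffold protein RACK1 1215 and 1179 FPKM (-0.04). Neither passed 1.5-fold, and both were above 0 after either rescaling.

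Other messenger RNAs, 16 in number and listed from prior knowledge as having a TOP start, had a median of -0.22, close to that of the members. Of these, 2 were lower by 1.5-fold (12.5%, beside 9.83% of all genes) and none higher. After either rescaling, 1 of the 16 was lower by 1.5-fold. The 664 other genes kept whose listed start was a C followed by 4 or more C or T had a median of -0.03, near the -0.04 of all genes. PABPC1, the cytoplasmic poly(A)-binding protein, had 519.9 and 178.0 FPKM (-1.54), and NPM1, a nucleolar chaperone, 1260 and 790.4 FPKM (-0.67, and -0.56 and -0.51 after the rescalings, short of 1.5-fold). The elongation factor subunit EEF1G (672 and 667 FPKM, -0.01) and the filament protein VIM (0.24) were highest. Their spread was wider than that of the ribosomal members, with an SD of 0.39 across genes beside 0.15.

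Regulators of TOP translation, 14 genes, had a median of -0.12 with 11 below 0, but -0.02 and 0.04 with 7 and 6 below 0 after the rescalings, and -0.03 by the most abundant transcripts. By 1.5-fold, 2 were lower (14.3%, beside 9.83% of all genes) and none higher (beside 12.7% of all genes). MLST8, a subunit shared by both mTOR complexes, had 23.3 and 9.28 FPKM (-1.24), and RPS6KB1, the S6 kinase, 35.3 and 20.3 FPKM (-0.77, or -0.54 by its most abundant transcript, short of 1.5-fold). EIF4EBP2, an inhibitor of the cap-binding protein, had 15.5 and 23.5 FPKM (0.57, and 0.68 and 0.73 after the rescalings, past 1.5-fold), and the kinase gene RPS6KB2 had 19.6 and 23.4 FPKM (0.24). MTOR itself (-0.14) and LARP1 (-0.39) lay between.

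Chaperones and importers that escort ribosomal proteins, 17 measured genes, had a median of -0.30, with 4 lower by 1.5-fold (23.5%, beside 9.83% of all genes) and none higher. After the rescalings, 2 and 0 of them passed 1.5-fold, beside 6.72% and 5.64% of all genes. RRS1, which brings the 5S particle into the ribosome, had 45.4 and 27.1 FPKM (-0.72). LTV1, of small-subunit export, had 24.7 and 14.7 FPKM (-0.71). RPF2, the partner of RRS1, was also lower at 19.1 and 12.2 FPKM (-0.60), and so was PDCD2L at 20.1 and 13.0 FPKM (-0.59). HEATR3, which carries RPL5 and RPL11 into the nucleus, was highest at 9.85 and 10.8 FPKM (0.12), followed by the import receptor TNPO1 at 118 and 125 FPKM (0.08).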

How the data were processed

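Libraries were made with a TruSeq RNA kit, per the labels' protocols. The submitters' processing notes name hg38, TopHat, Cufflinks and CASAVA 1.8.2. Their roles, the annotation, and any strand setting or read filter are not given in the sources used here. Per transcript of protein-coding genes, the authors deposited FPKM. The sequencing depth is unknown. The 3 value columns of the H1299 table were not used. FPKM was summed per symbol with pandas 2.3.3, genes reaching 1 FPKM in at least 1 library were kept (12230 of 19732), and log2 differences used a pseudocount of 1 FPKM. Members are described by counts and medians, with no test, since each group had 1 library. Members and lists were chosen with earlier results of these data known. Named were members past 1.5-fold, the 6 highest and 6 lowest differences, the 5 most and 5 least abundant, the alternative forms with their relatives, a fixed set, and the 2 highest and 2 lowest of each list; any further example was picked with its value known. GENCODE release 29 gave positions and transcripts, of which 432 of 433 matched. Coding sequences were aligned with Biopython 1.88, taking the most alike pair of complete ones. A few listed genes are not reported here. The procedure was tested on simulated data built from the control library, with the same small spread for every gene. Such data do not show how reliable differences between single libraries are. Alternatives changed the pseudocount, minimum, transcript choice and scaling.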

Additional observations from a re-analysis of the deposited data

How the results depend on the processing

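The members' median difference of -0.23 ranged from -0.067 to -0.25 over the 8 other settings of pseudocount, minimum, transcript choice and scaling. It was -0.12 with both libraries rescaled to the same total and -0.067 with genes of the mitochondrial genome left out of that total. Relative to the median of all genes, the median of FAU and RACK1 was -0.03 as reported, 0.0058 with a minimum of 5 FPKM and 0.012 with the highest transcript per symbol, and that of the regulators of TOP translation was -0.08 as reported and 0.01 with the highest transcript per symbol. The number of members lower by 1.5-fold was 3 as reported, 2 after either rescaling to the same total and 4 with the highest transcript per symbol, and none was higher in any setting. Chosen after seeing the data, leaving out the alternative forms and RPS19BP1 left 1 such member, RPL11, because RPL39L and RPL22L1 are among the genes left out. Of all genes past 1.5-fold, 56.4% were higher as reported, 70.0% and 75.6% after the rescalings, and 48.9% with a minimum of 5 FPKM. No paired analysis was possible because each group has 1 library. Depth is unknown, so no limit on low members such as RPL3L can be given.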
